A study of Nannochloropsis oceanica with 6 samples.

Results

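The 145 genes described here are the ubiquitin conjugation and ligase genes of Nannochloropsis oceanica strain IMET1, a unicellular marine alga that stores oil. They were taken from the 10481 genes of the deposited tables by annotation alone: 89 carry the KEGG pathway for ubiquitin-mediated proteolysis, 86 have a Swiss-Prot match named as an E3 ubiquitin ligase or a ubiquitin-conjugating enzyme, and 30 have both. Genes assigned to the proteasome or to autophagy were to be left out, and 0 candidates had to be. The set holds 7 activating enzymes (E1), 21 conjugating enzymes (E2), 112 ligases or ligase subunits (E3) and 5 genes for ubiquitin itself. Class was assigned by hand from the annotation text.

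RNA-seq was done on 3 nitrogen-deprived cultures (ND), kept in f/2 seawater medium without nitrogen, and on 3 nitrogen-replete cultures (NR), kept in f/2 medium with nitrate. All cultures came from cells grown at 25 °C, bubbled with 1.5% CO2, to a culture density (OD750) of 2.5, were restarted at that density in 800 mL and were sampled after 72 h at 50 µmol photons m-2 s-1 of continuous light. The strain is the same in both conditions, with no transgene or mutation in the labels. Library totals were 4383211 to 5693513 estimated counts in ND cultures and 3972986 to 4563940 in NR cultures. The nitrate reductase gene NIA (NO14G02460) averaged 665 ± 7.50 library-scaled counts (CPM, TMM-normalised) in ND cultures and 29.1 ± 4.17 in NR cultures (SD, n = 3 each). A gene annotated as nitrate reductase NIA2 (NO25G00630) averaged 120 ± 5.47 CPM in ND cultures and 212 ± 1.13 in NR cultures. These genes were looked up to check the labels, but they ran in opposite directions and no direction was set beforehand. They therefore do not settle the labels.

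Ubiquitin is a small protein that cells attach to other proteins, often to mark them for destruction by the proteasome. An E1 enzyme activates it with ATP, an E2 enzyme carries it, and an E3 ligase chooses the substrate. RING and U-box ligases bring the loaded E2 to the substrate, HECT ligases take ubiquitin onto themselves first, and the cullin-RING ligases and the anaphase-promoting complex (APC/C) do the same work as assemblies of several subunits. The related modifiers SUMO and NEDD8 have their own E1 and E2 enzymes, and NEDD8 is attached to cullins to activate them.

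Most of the set differed between the conditions by modest amounts, in both directions. Of 139 genes with enough counts to test, 56 were higher in ND cultures, 38 were lower and 45 did not pass the test (edgeR quasi-likelihood test, Benjamini-Hochberg adjusted p under 0.05 over all genes). The called share was 67.6%, against 71.2% of all 9329 genes tested. By direction, 40.3% of the tested ubiquitin genes were higher and 27.3% lower, against 35.7% and 35.5% of all genes. The called share thus lay near that of all genes, the higher share was somewhat larger and the lower share smaller. Neither difference by direction was tested. The median log2 fold change, ND over NR, was 0.08 in the set and 0.02 over all genes, and the median absolute change was 0.32 in the set against 0.50 over all genes. Changes of at least 2 times were called for 13 higher genes, against 9.39% of all genes, and for 6 lower genes, against 12.5%, so 13.7% of the set passed this size, against 21.9% of all genes. The ND and NR libraries did not overlap for 89 of the 139 genes, while 73.5% of all tested genes did not overlap.

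**Figure D1:**
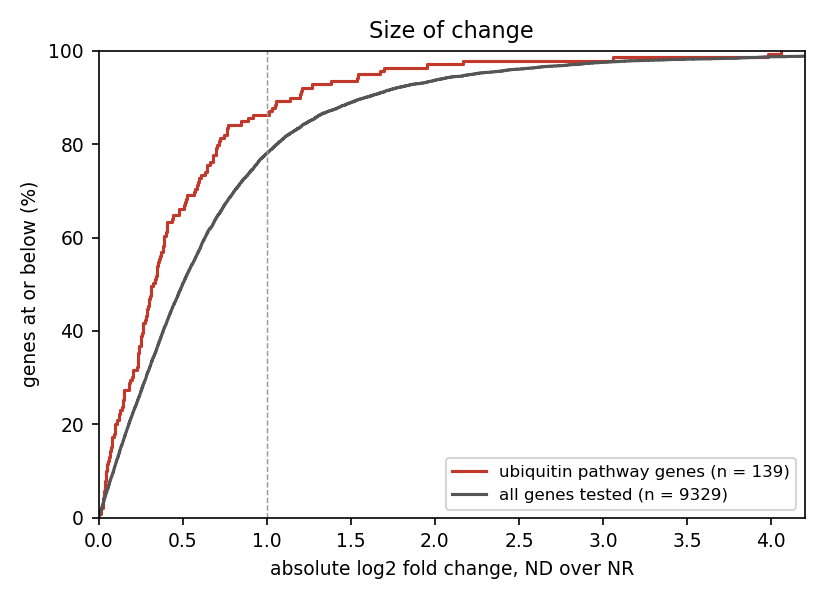
Cumulative percentage of genes (y axis) at or below each absolute log2 fold change between ND and NR cultures (x axis) for the 139 tested ubiquitin pathway genes and for all 9329 tested genes; the dashed line marks a change of 2 times. Over most of the range the curve of the ubiquitin genes lies above that of all genes, with medians of 0.32 and 0.50.

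The direction of the smaller changes depends on how libraries are scaled. Scaling by library totals alone put the median of all genes at 0.34 rather than 0.02, and called 5075 of all 9329 genes higher and 2149 lower. Of the called ubiquitin genes 85.7% were then higher in ND cultures, against 70.3% of all called genes. With the TMM factors used here these shares were 59.6% and 50.2%, and with upper-quartile factors 72.5% and 57.6%. The estimates are relative to the bulk of the transcriptome, and less RNA of a gene per cell cannot be told apart from fewer cells that express it. The labels state separate cultures for each condition but not separate starting cultures. Calls on named genes below hold with upper-quartile factors and with library totals alone unless an exception is given.

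Among the E1 enzymes, 3 of the 4 ubiquitin-activating enzyme genes were higher in ND cultures and the other one was lower. Over all genes 35.7% were higher and 35.5% lower. UBA1 (NO12G00690) had 107, 101 and 96.1 CPM in ND cultures and 72.4, 74.3 and 71.0 in NR cultures, a log2 fold change of 0.48 ± 0.07 (SE, edgeR adjusted p = 6.6e-06). Its neighbour in the gene numbering, uba1 (NO12G00700), changed by 0.76 ± 0.12 and carries the same annotation, so the 2 models may be pieces of a single gene. Summed, they changed by 0.56 ± 0.07. UBA1 (NO21G01790) changed by 0.44 ± 0.09, with 105, 105 and 108 CPM in ND cultures against 91.4, 79.0 and 63.8 in NR cultures. The opposite direction was seen in ptr3 (NO02G04400), with 57.9, 45.7 and 56.5 CPM in ND cultures and 82.2, 91.3 and 91.3 in NR cultures, a change of -0.72 ± 0.09 (edgeR adjusted p = 5.2e-07). None of these E1 genes overlapped between the conditions.

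The E1 of the SUMO pathway works as a pair of subunits. SAE2 (NO11G00010), its catalytic subunit, was higher in ND cultures at 69.2, 71.7 and 70.1 CPM, against 42.4, 47.6 and 40.2 in NR cultures (log2 0.70 ± 0.09), although some of its reads were shared with other genes. Its partner sae1 (NO01G00730) had a log2 change of 0.07 ± 0.13 (edgeR adjusted p = 0.643), and UBA3 (NO14G00840), the catalytic E1 subunit for NEDD8, 0.02 ± 0.10 (edgeR adjusted p = 0.845), and the libraries of both genes overlapped. With library totals alone all of the E1 genes except ptr3 were called higher.

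The largest changes among the E2 genes ran in opposite directions in 2 genes annotated as UBE2J1, the membrane-anchored enzyme of the endoplasmic reticulum known as Ubc6 in yeast, where it serves the disposal of misfolded proteins. NO07G01230 had 175, 173 and 175 CPM in ND cultures and 770, 795 and 790 in NR cultures, 4.50-fold lower (log2 -2.17 ± 0.05, edgeR adjusted p = 3.11e-19). NO14G00250 had 69.4, 76.0 and 78.9 CPM in ND cultures and 24.9, 26.4 and 25.8 in NR cultures, 2.92-fold higher (log2 1.55 ± 0.09, edgeR adjusted p = 8.74e-12). All deposited counts of both genes were whole numbers, with no sign of shared reads. On the length-adjusted TPM scale the pair stood at nearly the same level in ND cultures, 157 TPM for NO07G01230 and 151 for NO14G00250, but at 547 and 39.9 TPM in NR cultures. The log2 ratio of NO14G00250 to NO07G01230 was -0.06 ± 0.10 in ND cultures and -3.78 ± 0.02 in NR cultures (SD, n = 3 each). NO07G01230 made up 6.47% ± 0.13 of the summed TPM of all E2 genes in ND cultures and 22.6% ± 0.67 in NR cultures.

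**Figure D2:**
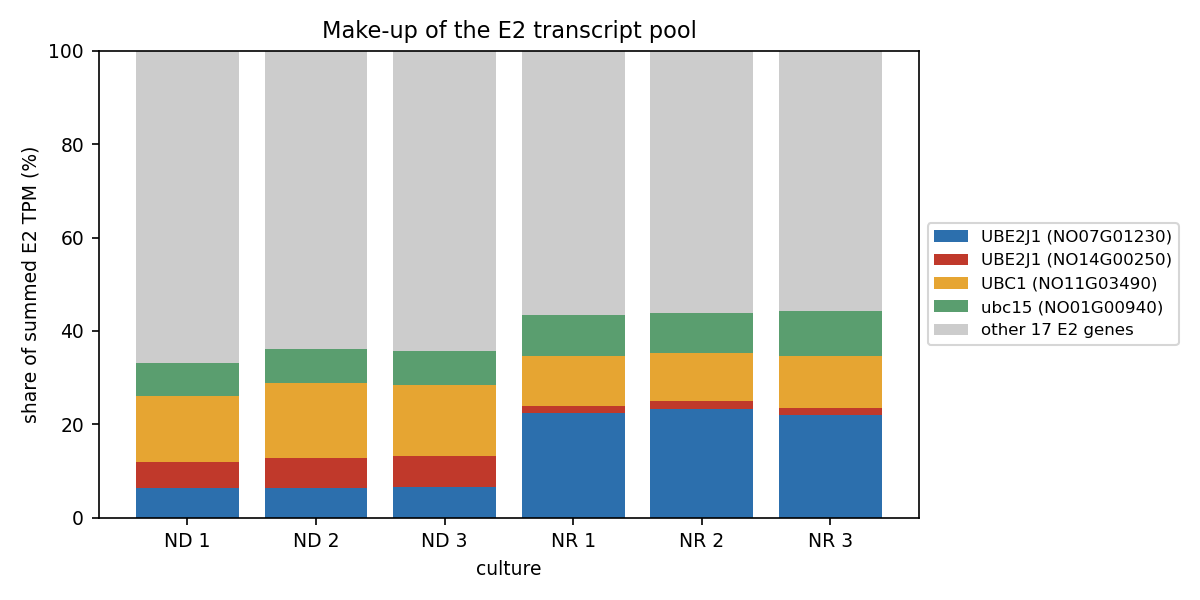
Share of the summed TPM of the 21 E2 genes (y axis, percent) in each culture (x axis), stacked for both UBE2J1 genes, UBC1, ubc15 and the other 17 E2 genes. NO07G01230 takes about 6.47% in ND cultures and 22.6% in NR cultures, and NO14G00250 about 6.23% and 1.65%.

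Of the 19 E2 genes tested, 6 were higher in ND cultures, 8 were lower and 5 were not called. The called share was 73.7%, against 71.2% of all genes. By direction 31.6% were higher and 42.1% lower, against 35.7% and 35.5% of all genes. The E2 median of -0.20 turned to 0.11 with library totals alone, where 9 were higher and 4 lower, and 4 were lower with upper-quartile factors. Of all 9329 genes, 5075 were higher and 2149 lower with library totals alone. Beside NO07G01230, the lower genes included ubc15 (NO01G00940), assigned to the Ubc7 group that also serves endoplasmic reticulum disposal in yeast. It had 121, 120 and 117 CPM in ND cultures and 188, 181 and 214 in NR cultures (log2 -0.70 ± 0.07). UBC27 (NO24G00900) had 83.0, 70.8 and 70.1 CPM in ND cultures and 117, 119 and 112 in NR cultures (log2 -0.64 ± 0.08). UBC16 (NO08G03450) was called at -0.34 ± 0.11, but not with upper-quartile factors or library totals alone, where its log2 change was -0.24 and -0.03. The higher genes besides NO14G00250 included ube2t (NO04G02710), whose human counterpart acts in DNA crosslink repair, at 0.59 ± 0.06 with shared reads. UBE2J2 (NO17G00620), another enzyme of the J family, changed by 0.57 ± 0.20 and lost its call without NR replicate 3 (0.44, edgeR adjusted p = 0.072).

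RCE1 (NO10G02550), an enzyme that loads NEDD8 onto cullins, had 149, 145 and 137 CPM in ND cultures and 376, 356 and 389 in NR cultures, 2.60-fold lower (log2 -1.38 ± 0.06, edgeR adjusted p = 7.34e-15), with part of its reads shared. For SUMO, SCE1 (NO22G01190) was higher by 0.34 ± 0.08 and the other SCE1 gene (NO22G01210) stood at -0.35 ± 0.17 without a call (edgeR adjusted p = 0.0639); both shared reads. The E2 gene with the highest level in ND cultures, UBC1 (NO11G03490), stood at 367 TPM in ND cultures and 259 in NR cultures. Its normalised counts overlapped between the conditions, and its log2 change of 0.14 ± 0.06 passed the edgeR threshold but not that of DESeq2 (adjusted p = 0.0816), nor edgeR's without either ND replicate 2 (0.09) or 3 (0.14) or NR replicate 1 (0.12) or 2 (0.10).

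Cullin-RING ligases join a cullin scaffold, a RING subunit, and adaptors and receptors that bind the substrate. RBX1, the RING subunit, and SKP1, the adaptor of cullin-1 ligases, are represented by 4 genes. With TMM factors all 4 were lower in ND cultures, against 35.5% of all genes. Of the 4 genes, 3 were lower with upper-quartile factors and 2 with library totals alone. The largest difference was in SKP1 (NO14G00110), a weakly expressed gene with 0.82, 1.26 and 1.10 CPM in ND cultures and 17.7, 20.1 and 16.9 in NR cultures. That is 16.6-fold lower (log2 -4.06 ± 0.27, edgeR adjusted p = 3.1e-11) and rests on 4, 7 and 7 counts in ND cultures against 72, 73 and 61 in NR cultures. The copies SKP1 (NO10G01920) and SKP1 (NO14G00140) were far more abundant, at 347 and 236 TPM in ND cultures and 329 and 219 in NR cultures. On the normalised count scale they changed by only -0.41 ± 0.08 and -0.20 ± 0.07. NO14G00140 turned to 0.12 with library totals alone, and lost its call with upper-quartile factors (-0.09) and without ND replicate 3 (-0.16) or NR replicate 3 (-0.15). NO10G01920 lost its call with library totals alone. NO14G00110 thus supplied 0.405% ± 0.06 of SKP1 TPM in ND cultures and 5.81% ± 0.71 in NR cultures. The RBX1 gene rbx1 (NO15G00090) had 28.2, 38.3 and 33.7 CPM in ND cultures and 49.7, 48.4 and 59.4 in NR cultures (log2 -0.65 ± 0.11).

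The cullins, the scaffolds of these ligases, were divided: 3 of the 7 tested were higher in ND cultures, 3 were lower and 1 was not called. The called share was 85.7%, against 71.2% of all genes. CUL1 (NO08G00120) had 103, 101 and 106 CPM in ND cultures and 71.2, 74.6 and 71.3 in NR cultures (log2 0.51 ± 0.07). CUL1 (NO13G02660) had 187, 190 and 192 CPM in ND cultures and 255, 239 and 228 in NR cultures (log2 -0.34 ± 0.06), a call that was lost with library totals alone (-0.03). The third tested CUL1 gene, NO25G02060, stood at -0.09 ± 0.07 (edgeR adjusted p = 0.2), and at 0.22 with library totals alone. CUL4 (NO10G02850), the most abundant cullin at 203 TPM in ND cultures and 139 in NR cultures, was higher by 0.18 ± 0.05. The gene culC (NO19G01130) changed by -0.40 ± 0.08, without a call under library totals alone (-0.08). CUL3B is split over adjacent models that share reads, NO17G01080 at 0.30 ± 0.07 and NO17G01090 at -0.57 ± 0.06; summed, they changed by -0.03 ± 0.05 (edgeR adjusted p = 0.591). CUL1 (NO25G02070) and CUL4 (NO10G02840) had too few counts to test.

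Of the 4 other adaptor and receptor genes, 3 were higher in ND cultures and 0 were lower, unlike the SKP1 adaptors above. Over all genes 35.7% were higher and 35.5% lower. ERCC8 (NO14G01950), known in humans as CSA, the receptor that a CUL4 ligase uses in transcription-coupled DNA repair, had 96.2, 98.0 and 101 CPM in ND cultures and 38.4, 42.9 and 46.9 in NR cultures. This is 2.31-fold higher (log2 1.21 ± 0.08, edgeR adjusted p = 6.74e-11), with shared reads. DBB1 (NO10G03920), whose KEGG assignment is DDB1, the adaptor that joins such receptors to CUL4, had 231, 246 and 236 CPM in ND cultures and 167, 181 and 165 in NR cultures (log2 0.48 ± 0.06).

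**Figure D3:**
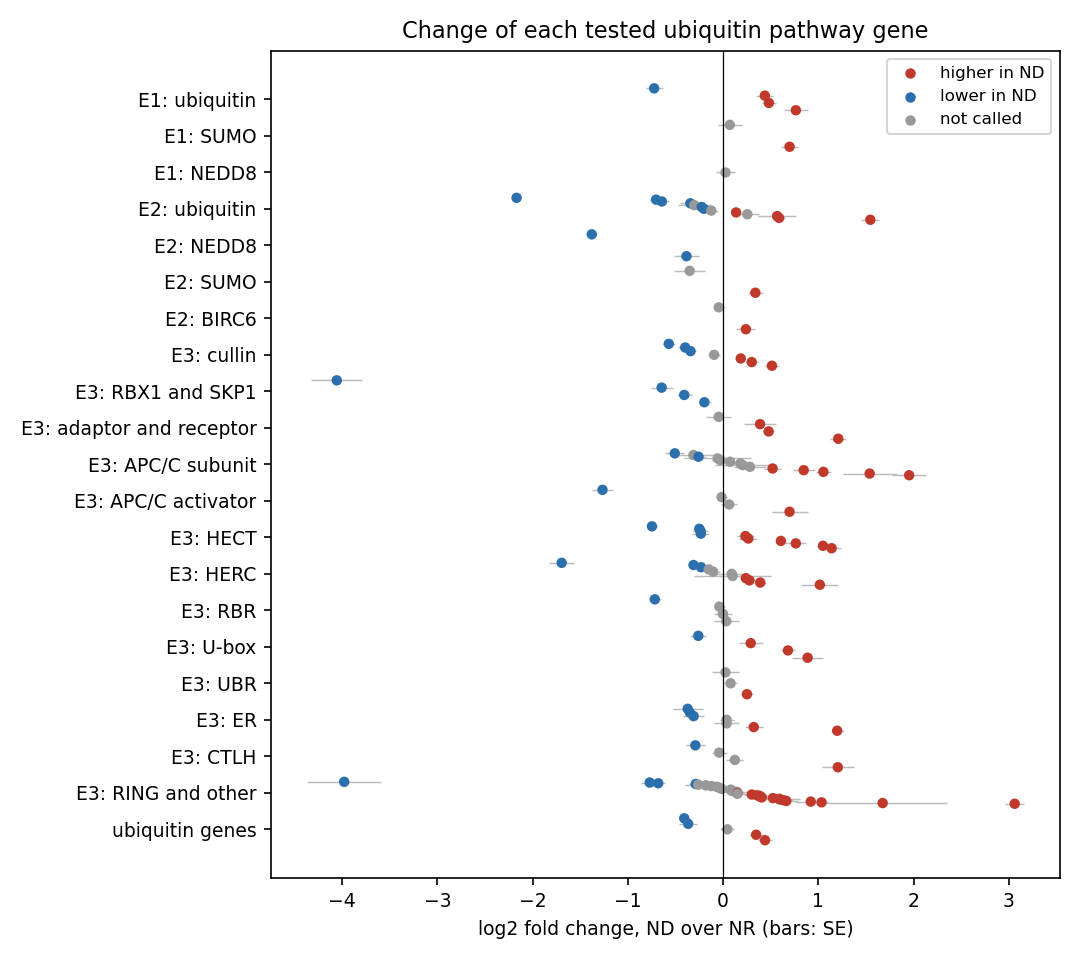
Log2 fold change of each of the 139 tested genes, ND over NR (x axis, bars are SE), by class and family (y axis), coloured by whether edgeR called it higher, lower or neither. Most points lie within 1 unit of 0; the 4 RBX1 and SKP1 genes lie left of 0, and SKP1 (NO14G00110) at -4.06 and Rnf167 (NO15G00460) at 3.06 are the extremes.

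The APC/C drives cells through mitosis by marking cyclins and other regulators. Of its 14 subunit genes, 5 were higher in ND cultures, 2 were lower and 7 were not called. The called share was 50.0%, against 71.2% of all genes. Under library totals alone 9 were higher and 0 lower, where 5075 of all 9329 genes were higher and 2149 lower. ANAPC1 (NO20G02090), its scaffold, had 22.4, 24.0 and 25.5 CPM in ND cultures and 6.90, 6.60 and 4.99 in NR cultures, 3.87-fold higher (log2 1.95 ± 0.18, edgeR adjusted p = 4.09e-09). The adjacent ANAPC1 model NO20G02100 changed by 1.54 ± 0.28, and the sum of the 2 models by 1.82 ± 0.14; both share reads. NO21G01200, assigned to APC7 by KEGG but matched in Swiss-Prot to the lipid transfer protein CSR1, was higher by 1.05 ± 0.07 with shared reads. CDC27B (NO13G00130), a subunit that binds the activators, had 43.1, 52.3 and 44.3 CPM in ND cultures and 26.4, 28.1 and 23.3 in NR cultures (log2 0.85 ± 0.11). APC8 (NO08G00320) was higher by 0.52 ± 0.09.

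The 4 APC/C activators, which recruit its substrates, held 1 higher and 1 lower call (50.0% called, against 71.2% of all genes). FZR2 (NO21G01320), of the CDH1 type that acts in late mitosis and in G1 in yeast and animals, had 25.5, 26.4 and 29.4 CPM in ND cultures and 74.6, 61.1 and 60.2 in NR cultures, 2.41-fold lower (log2 -1.27 ± 0.11, edgeR adjusted p = 1.25e-09). Of 3 genes of the CDC20 type, which acts earlier in mitosis, cdc20 (NO02G02210) was higher by 0.70 ± 0.19 at 7.88 TPM in ND cultures and 3.77 in NR cultures. The most abundant of them, CDC20-2 (NO20G01660), stood at 227 TPM in ND cultures and 181 in NR cultures, with a log2 change of -0.02 ± 0.06 on the normalised count scale (edgeR adjusted p = 0.818), and 0.30 with library totals alone.

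The ligases outside these assemblies numbered 77. Of 75 tested, 32 were higher in ND cultures, 17 were lower and 26 were not called. By direction 42.7% were higher and 22.7% lower, against 35.7% and 35.5% of all genes. The gene with the largest increase of the whole set was Rnf167 (NO15G00460), a ligase of the RNF130 or Goliath family of membrane RING proteins. It had 173, 193 and 196 CPM in ND cultures and 21.4, 27.0 and 19.1 in NR cultures, 8.35-fold higher (log2 3.06 ± 0.10, edgeR adjusted p = 1.26e-16). It stood at 155 TPM in ND cultures and 15.4 in NR cultures. The other gene with that KEGG assignment, At1g12760 (NO01G03740), had 76.2, 81.4 and 85.5 CPM in ND cultures and 54.2, 63.8 and 66.6 in NR cultures, a change of 0.41 ± 0.09 with shared reads.

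XBAT33 (NO20G02210), matched to a plant ankyrin-repeat RING ligase, was at the other end. It had 0.41, 0.54 and 0.78 CPM in ND cultures and 7.88, 12.9 and 8.60 in NR cultures, from 2, 3 and 5 counts in ND cultures against 32, 47 and 31 in NR cultures. The estimate was 15.8-fold lower (log2 -3.98 ± 0.39, edgeR adjusted p = 1.44e-08). RING and other single-chain ligases without a closer family held more higher than lower calls, 15 against 4 of 32 tested (46.9% and 12.5%, against 35.7% and 35.5% of all genes), with a median of 0.15. With library totals alone 25 were higher and 3 lower, with a median of 0.46 against 0.34 over all genes. SHPRH (NO07G03630), which in yeast and humans extends ubiquitin chains on the replication clamp PCNA, had 153, 148 and 145 CPM in ND cultures and 71.9, 78.4 and 67.4 in NR cultures (log2 1.03 ± 0.07). At1g63170 (NO10G03170) changed by -0.68 ± 0.07. Its namesake NO14G02390, the most abundant of all these ligases at 241 TPM in ND cultures and 195 in NR cultures, stood at -0.07 ± 0.05 without a call, and was called at 0.25 with library totals alone. DA2L (NO02G03510) is matched in Swiss-Prot to a ligase but assigned by KEGG to PFDN2, and it has shared reads. It passed the threshold at 0.15 ± 0.06 but lost it under DESeq2 (0.14, adjusted p = 0.0892) and without any of 5 single cultures, at 0.09 without NR replicate 2 and 0.14 to 0.15 without NR replicate 1 or ND replicate 1, 2 or 3.

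All 10 HECT ligase genes passed the test, 6 higher in ND cultures and 4 lower, where 71.2% of all tested genes passed; the lower ones were 2 with upper-quartile factors and 1 with library totals alone. RSP5 (NO28G00030), named for the yeast ligase that sends membrane transporters for degradation, had 147, 141 and 143 CPM in ND cultures and 69.9, 71.2 and 66.9 in NR cultures (log2 1.05 ± 0.07, edgeR adjusted p = 1.65e-11). Nedd4 (NO04G02780), which KEGG assigns to NEDD4 and RSP5, was called lower at -0.23 ± 0.09 (edgeR adjusted p = 0.0234), with overlapping libraries. That value is scaling-dependent, being smaller than the shift of all genes between TMM factors and library totals. All 3 genes of the TRIP12 group were higher. UPL3 (NO09G00170) had 57.3, 59.0 and 61.7 CPM in ND cultures and 28.1, 28.1 and 24.7 in NR cultures (log2 1.14 ± 0.10). UPL4 (NO09G00160), adjacent to it and with shared reads, changed by 0.76 ± 0.11 and UPL4 (NO16G02200) by 0.61 ± 0.05. UBE3A (NO04G01130), the ligase that human papillomavirus E6 hijacks, had 168, 166 and 158 CPM in ND cultures and 277, 276 and 272 in NR cultures (log2 -0.75 ± 0.05, edgeR adjusted p = 8.85e-11). The gene Ube3a (NO04G00970), with the same Swiss-Prot match, was called in the opposite direction at 0.23 ± 0.09 (edgeR adjusted p = 0.0247). It shared reads, and its libraries overlapped between the conditions.

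The HERC group was mixed, with 4 higher, 3 lower and 4 not called of 11, adjacent models being counted separately. It includes NO02G02990, assigned by KEGG to SAC1, and NO13G00290, assigned to RCBTB, and neither was called. The called share was 63.6%, against 71.2% of all genes. Library totals alone gave 6 higher and 1 lower HERC genes, against 5075 higher and 2149 lower of all 9329 genes. HERC2 (NO01G03090) had 44.0, 27.4 and 44.3 CPM in ND cultures and 107, 127 and 143 in NR cultures, 3.24-fold lower (log2 -1.70 ± 0.13). It shares reads and lies beside another HERC2 model, NO01G03080, at -0.23 ± 0.08 (a scaling-dependent value, smaller than the shift of all genes between TMM factors and library totals), and the sum of both changed by -0.55 ± 0.05. HERC1 (NO18G02290) was higher by 1.02 ± 0.19. Its adjacent model NO18G02280, with the same annotation, changed by 0.10, and the sum of both by 0.85 ± 0.17. Another HERC1 run, NO25G01690 and NO25G01700, changed by 0.02 ± 0.06 when summed (edgeR adjusted p = 0.772). Among the RBR ligases ARI3 (NO27G01080) was lower by 0.72 on the log2 scale (-0.72 ± 0.06) with shared reads. The other 3 were not called, though with library totals alone those 3 were called higher. The called share of the RBR genes with TMM factors was 25.0%, against 71.2% of all genes. Of the 4 U-box ligases 3 were higher and 1 was lower, where 35.7% of all genes were higher and 35.5% lower. With RLE factors, another scaling, 2 were higher. STUB1 (NO02G05340), named after a chaperone-linked ligase but assigned by KEGG to UFD2, was higher by 0.89 ± 0.17. PRP19 (NO08G00290), a splicing factor with ligase activity, was higher by 0.68 ± 0.07. PUB1 (NO14G00630), with the same KEGG assignment as STUB1, was the lower one at -0.26 ± 0.08 (edgeR adjusted p = 0.00773). PUB1 was not called lower with upper-quartile factors or library totals alone. RMND5B (NO17G01780), of the CTLH complex that in yeast destroys gluconeogenic enzymes, was higher by 1.20 ± 0.17, while its adjacent model NO17G01770 with shared reads stood at 0.12 ± 0.09; the sum changed by 0.33 ± 0.08.

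**Figure D4:**
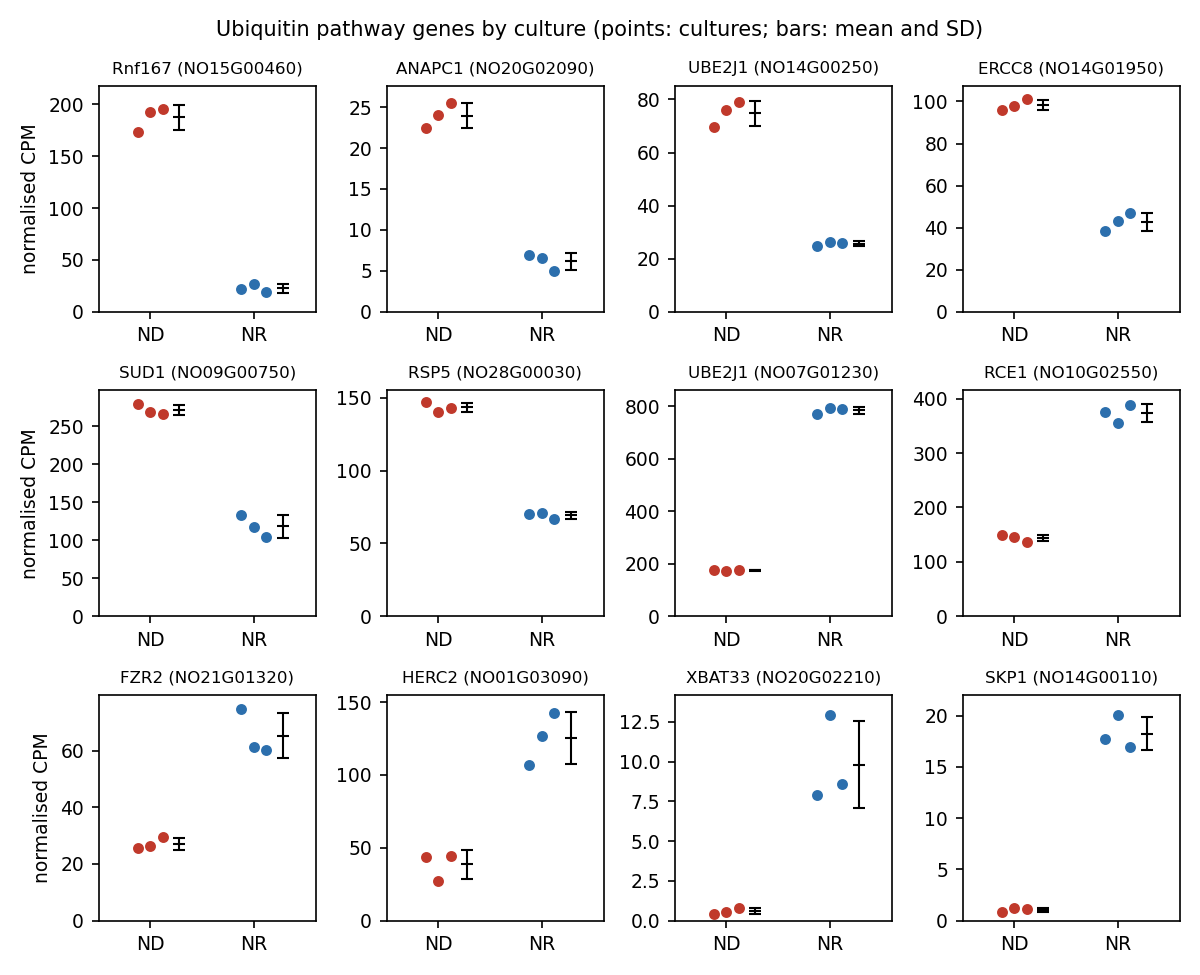
TMM-normalised CPM (y axis, linear, from 0) in each of 3 ND and 3 NR cultures (x axis; points are cultures, bars mean and SD) for 12 genes, 6 higher and 6 lower in ND cultures. The groups do not overlap in any panel; Rnf167 lies between 173 and 196 in ND cultures and between 19.1 and 27.0 in NR cultures.

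The group of endoplasmic reticulum ligases, the partners of the UBE2J and Ubc7 enzymes in yeast, had 2 higher, 3 lower and 2 not called. The 3 lower calls were the ligase partner HRD3B and the models NO12G03790 and NO12G03800. Those models are adjacent, carry the same annotation and were counted separately. The called share was 71.4%, against 71.2% of all genes. Library totals alone gave 4 higher and 0 lower. SUD1 (NO09G00750), of the MARCH6 or Doa10 type, had 280, 269 and 267 CPM in ND cultures and 133, 118 and 104 in NR cultures, 2.29-fold higher (log2 1.20 ± 0.07, edgeR adjusted p = 3.33e-12), with shared reads. A run of 3 adjacent models with the same annotation (NO12G03780, NO12G03790 and NO12G03800) had changes of 0.04, -0.31 and -0.37, and their sum -0.22 ± 0.08. RNF185 (NO14G01660) was higher by 0.32 ± 0.09. HRD1 (NO15G01300) stood at 0.04 ± 0.07 (edgeR adjusted p = 0.681) and its partner HRD3B (NO26G01040) was called at -0.35 ± 0.07, though not with library totals alone (-0.03). KEGG also places 24 tested members in protein processing in the endoplasmic reticulum, and 8 were higher and 12 lower with a median of -0.15. These are 33.3% and 50.0%, against 35.7% and 35.5% of all genes, and adjacent models were counted separately. With library totals alone 12 were higher and 4 lower, and over all 9329 genes 5075 were higher and 2149 lower.

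The genes for ubiquitin itself had the highest median level of the classes, 409 TPM over all cultures, against 114 for E2, 42.3 for E1 and 40.9 for E3 genes. Polyubiquitin ubq-1 (NO07G03480) had 1081, 1107 and 1119 CPM in ND cultures and 1496, 1527 and 1366 in NR cultures, a change of -0.41 ± 0.05 (edgeR adjusted p = 1.42e-07) that was not called with library totals alone (-0.09). On the TPM scale, which is not TMM-adjusted, it stood at 627 in ND cultures and 647 in NR cultures. The ubiquitin fusions to ribosomal proteins split, with crp-79 (NO04G01970) at 0.35 ± 0.08 and NO06G02130 at 0.44 ± 0.07, both called higher. NO28G00190 was called at -0.37 ± 0.10, but stood at -0.05 without a call under library totals alone, and ubi3 (NO01G04980) was not called at 0.04 ± 0.07, but was at 0.36 with library totals alone.

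Some genes with the same KEGG assignment were called in opposite directions. There were 23 assignments with at least 2 tested genes, covering 62 genes, and with TMM factors 8 of them (34.8%) held calls in both directions, against 35.1% of 978 such assignments over all genes, so the set lay at the background. With library totals alone 4 did (17.4%, against 30.3% over all genes): UBE2J1, the ubiquitin E1, CUL3, whose adjacent models sum to nearly no change, and the ARIH1 group, which was not among the 8. In 4 assignments every tested gene was higher (ANAPC1, RNF130, TRIP12 and ZNF598). The share over all genes was not worked out for this count. The 2 ANAPC1 genes and 2 of the 3 TRIP12 genes are adjacent models that may be pieces of a single gene. The 3 SKP1 genes were all lower with TMM factors, with the exceptions under other scalings given above. Of the 145 genes, 35 lie in 17 runs of adjacent models with the same annotation, and 54 had non-whole estimated counts taken as a sign of shared reads.

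The shares of the classes differed on the TPM scale. Summed E2 TPM was 2428 ± 45.9 in ND cultures and 2426 ± 79.3 in NR cultures (two-sided exact permutation p = 0.9). The sums of the other classes were higher in every ND culture, at 456 ± 18.1 in ND cultures and 279 ± 21.7 in NR cultures for E1, 6965 ± 103 in ND cultures and 5206 ± 60.3 in NR cultures for E3, and 2672 ± 48.5 in ND cultures and 2101 ± 88.8 in NR cultures for ubiquitin genes (SD, n = 3 each; exact permutation p = 0.1 for each). These sums are not TMM-adjusted, and on scales without that adjustment the median of all genes was also higher in ND cultures. E2 genes made up 19.4% ± 0.49 of the summed TPM of the 145 genes in ND cultures and 24.2% ± 0.41 in NR cultures, and E3 genes 55.6% ± 0.44 in ND cultures and 52.0% ± 0.64 in NR cultures (SD, n = 3 each). E1 genes made up 3.65% ± 0.17 in ND cultures and 2.79% ± 0.25 in NR cultures, and ubiquitin genes 21.3% ± 0.22 in ND cultures and 21.0% ± 0.51 in NR cultures. The cultures did not overlap for E1, E2 and E3 (two-sided exact permutation p = 0.1, the smallest that 3 cultures against 3 allow), and p was 0.4 for the ubiquitin genes. Without UBE2J1 (NO07G01230) the E2 share was 18.4% ± 0.49 in ND cultures and 19.8% ± 0.49 in NR cultures.

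The enzymes that remove or regulate ubiquitin and its relatives were looked up by annotation words. Of 40 genes with deubiquitinase words in their annotation, 17 were higher in ND cultures and 9 lower (65.0% called, against 71.2% of all genes), with a median of 0.21. With library totals alone these counts were 25 and 4, where 5075 of all 9329 genes were higher and 2149 lower. The 40 include Hdac6 (NO04G00030), matched to a histone deacetylase, and Usp54 (NO11G00850), matched to an inactive family member, and neither was called. NO28G01110, assigned to OTUD1, had 3.70, 5.60 and 2.97 CPM in ND cultures and 49.5, 41.0 and 44.4 in NR cultures, 11.0-fold lower (log2 -3.46 ± 0.18). MINDY3 (NO21G02170), which trims ubiquitin chains, was higher by 1.28 ± 0.11. The COP9 signalosome takes NEDD8 off cullins. Of its 11 genes, counted with CAND1, 5 were higher and 5 lower (90.9% called, against 71.2% of all genes). With library totals alone these counts were 6 and 1. CSN1 (NO05G02670) stood at -1.02 ± 0.06 and COPS3 (NO05G01010) at 0.80 ± 0.08, both with shared reads. Of 15 tested genes for SUMO, NEDD8 and UFM1 conjugation outside the set, 5 were higher and 2 lower (46.7% called, against 71.2% of all genes). With library totals alone these counts were 8 and 2. Desi1 (NO03G05050), a desumoylating peptidase, was the lowest at -1.73 ± 0.10. The other gene of that name, DESI1 (NO21G01870), was called higher at 0.36 ± 0.15 (edgeR adjusted p = 0.0341), with overlapping libraries. ZMIZ1 (NO06G00960) was higher by 1.02 ± 0.14. NO05G03270, a ubiquitin gene outside the set, stood at -0.10 without a call, and at 0.21 with library totals alone.

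The authors' deposited table of differential genes lists 19 of the 145 genes (13.1%), 12 with a positive and 7 with a negative ND over NR value, against 19.6% of all genes. It includes XBOS32 (NO27G00020), at -2.16 with an FDR of 0.0453 in the authors' deposited table, which had 2, 2 and 2 counts in ND cultures and 6, 8 and 4 in NR cultures and was too low to test here. The other untested genes, besides the pair of cullins above, were RCE1 (NO10G02560), At3g19950 (NO10G03320) and BIRC6 (NO28G00150).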

How the data were processed

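Per-library tables hold estimated counts, TPM and FPKM per gene as the authors deposited them, with annotation columns. Of software, the submitters' processing notes list edgeR, featureCounts, StringTie, STAR, Picard and Trim Galore, without roles or versions; the genome build is not given in the sources used here. The authors' deposited comparison table gives log2 fold changes, p-values and FDR.

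Estimated counts were rounded and tested with edgeR 4.0.16 (R 4.3.3; filterByExpr, TMM factors, quasi-likelihood F test) over all 9329 genes that passed the filter, with Benjamini-Hochberg adjustment and a threshold of 0.05. Recovery was tested on simulated counts. Normalised CPM uses the TMM-scaled library totals. A gene with non-whole estimated counts (tolerance 1e-06) was said to share reads. DESeq2 1.42.0, limma 3.58.1 on log2(FPKM + 1) or log2(FPKM + 0.1), other scalings, filters, left-out cultures and a replicate block were tried as alternatives, and the sum of adjacent models was added after the data were seen.

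Named genes were every E1, cullin, RBX1 and SKP1 gene; per class (E2, single-chain E3, complex E3) the 5 with the smallest p in each direction and the 3 with the highest TPM; genes past a log2 change of 2; and 2 genes from each comparison list. Any further gene given with values was picked with its values known. The set and lists were chosen with earlier results of these data known. Results for some items are not reported here. No sequences are shown.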

Additional observations from a re-analysis of the deposited data

How the results depend on the processing

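Scaling had the largest effect. The set's 56 higher and 38 lower genes became 90 and 15 with library totals alone, 89 and 14 with limma on log2(FPKM + 1), and 88 and 14 with a pseudocount of 0.1. Upper-quartile factors left 25 lower. All genes shifted in the same direction, from 3333 higher and 3312 lower to 5075 and 2149 with library totals alone. For all genes the FPKM scales gave 5090 and 2031, and 5059 and 2019, and upper-quartile factors gave 3894 and 2869. E3 genes (44 higher, 27 lower) became 72 and 10, 70 and 9, and 69 and 9 under the first 3 of these. E2 genes (6 higher, 8 lower) had 4 lower under all 4, 10 higher with either FPKM scale, 3 higher with DESeq2, and 3 higher and 5 lower at an adjusted p of 0.01. Genes with whole counts gave 32 higher in the set, and 23 higher and 16 lower E3 genes. Members found through KEGG gave 37 higher in the set, and 26 higher and 16 lower E3 genes. Leaving out single cultures gave 48 to 53 higher and 31 to 38 lower genes in the set, 4 to 6 and 6 to 9 E2 genes, and 38 to 42 and 21 to 26 E3 genes.

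Reversed log2 changes, given for upper-quartile factors, library totals alone, FPKM + 1 and FPKM + 0.1, were 0.004, 0.212, 0.243 and 0.246 for NO05G03270, 0.042, 0.250, 0.262 and 0.264 for NO14G02390, 0.092, 0.300, 0.288 and 0.290 for NO20G01660, and 0.015, 0.223, 0.228 and 0.232 for NO25G02060. With library totals alone and the FPKM scales NO14G00140 was at 0.12, 0.07 and 0.07. With the FPKM scales NO10G01920 was at 0.042 and 0.043, and NO28G00190 at 0.053 and 0.053. Left-out cultures put NO14G00840 between -0.042 and 0.148, NO20G01660 between -0.076 and 0.052, and NO01G04980 between -0.02 and 0.125. NO17G01080 was at -0.032 when adjacent models were summed. The cause was not tested.

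With a replicate block, 54 genes were higher and 38 lower. Deviations of same-numbered cultures correlated at 0.02, 0.04 and 0.09, so the numbers were not taken as pairs. The call of ltn1 (NO12G02380), at 1.67 ± 0.68 from 10.2, 24.9 and 18.3 estimated counts in ND cultures and 10.9, 0 and 0 in NR cultures, was lost under the block, under DESeq2 and without any of 4 cultures (1.13 to 1.76). Counts under about 10 per library limit SKP1 (NO14G00110) and XBAT33 in ND cultures.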

Other observations

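The deposited gene length, which for genes with several transcripts varies from library to library, differed between conditions for 2 of 67 multi-transcript members with at least 50 counts (2.99%), against 3.84% of 3126 genes (limma on log2 length). SAE2 (NO11G00010) averaged 6358 bases in ND cultures and 5217 in NR cultures (limma adjusted p = 0.00224). Some of its reads are shared with other genes.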
